A study of Homo sapiens with 3 samples.

Results

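The genes described here are the long intergenic noncoding RNA (lincRNA) genes of HaCaT cells, an immortalised human keratinocyte line, measured by RNA sequencing. They are the genes to which GENCODE 29 gives the type lincRNA and that reached at least 1 CPM (CPM is a gene's share of the library total scaled to counts per 1e6) in at least 1 of the 3 libraries, leaving out MALAT1, NEAT1, NORAD and CYTOR. The rule kept 518 of the 58735 genes in the table. The table holds 7629 lincRNA genes, of which 2541 had at least 1 count. The rule used levels but no difference between libraries. Just inside it lay AC124276.1, AL139220.2 and C6orf99, each at 1.00 CPM in its highest library, and just outside lay OVAAL, AC000403.1 and AL512625.1 at 0.980 CPM.

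The study dealt with the epidermal barrier, oxidative stress and DNA damage in keratinocytes that meet particles. All 3 cultures were wild-type HaCaT cells kept for 24 h in DMEM without fetal bovine serum. One culture stayed without particles (control), one was given 25 µg/mL of carbon black (CB), and one 50 µg/mL of S1650b, the particulate matter sample of the study. Each group holds 1 library of 1 cell line, so no difference given here has a replicate check, no P value can be given, and a particle effect and a difference between cultures cannot be told apart. The 2 exposures differ in both material and dose, so values of CB and S1650b stand side by side.

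lincRNAs are made by RNA polymerase II from genes that lie between protein-coding genes, and most are capped, spliced and polyadenylated like messenger RNAs. They are kept at low levels, many stay in the nucleus, and the nuclear exosome removes a large share of them soon after synthesis. Some start at the promoter of a protein-coding gene and run the other way, some carry microRNAs or small nucleolar RNAs in their exons and introns, and a few act in DNA repair, interferon responses or epidermal differentiation.

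MicroRNAs carried by these genes are shown first, since the seed (bases 2 to 8, in capitals) is what pairs with target messages and shows which hosts carry related molecules. In all, 36 hairpins lay inside 20 of the 518 genes, 11 in an exon and 25 in an intron, and the RefSeq table (GRCh38.p14) gave 52 mature sequences from 30 of them. The mature molecules were not measured here. One seed is shared by 4 of them, which come from MIRLET7BHG, AC048341.1 and MIR4458HG.
hsa-let-7a-5p: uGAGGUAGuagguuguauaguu
hsa-let-7b-5p: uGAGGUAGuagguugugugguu
hsa-let-7i-5p: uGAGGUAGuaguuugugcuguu
hsa-miR-4458: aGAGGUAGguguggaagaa
MIR222HG carries a pair with a common seed, and so do LINC00472 and MIR29B2CHG.
hsa-miR-221-3p: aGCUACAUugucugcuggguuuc
hsa-miR-222-3p: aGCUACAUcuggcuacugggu
hsa-miR-30a-5p: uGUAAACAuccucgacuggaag
hsa-miR-30c-5p: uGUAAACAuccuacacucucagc
hsa-miR-29b-3p: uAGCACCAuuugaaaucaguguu
hsa-miR-29c-3p: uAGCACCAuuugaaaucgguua
MIR22HG, FTX, MIR210HG and MIR503HG carry molecules whose seeds no other of the 52 sequences has. FTX holds the hairpins MIR374A and MIR374B. For MIR374A only the 3p molecule was among the 52, so the seed of its 5p molecule was not compared.
hsa-miR-22-3p: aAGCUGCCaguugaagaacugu
hsa-miR-421: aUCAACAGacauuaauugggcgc
hsa-miR-374b-5p: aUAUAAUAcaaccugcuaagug
hsa-miR-210-3p: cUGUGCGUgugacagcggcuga
hsa-miR-503-5p: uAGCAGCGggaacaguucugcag

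Promoters of 4 genes whose counts differed between libraries follow, each from 250 bases before to 50 after the RefSeq start, 5′ to 3′ on the gene's strand (GRCh38.p14). Positions are counted from the start, with no position 0. Capitals mark matches to 3 motifs: GCGTG (the core that the aryl hydrocarbon receptor, AHR, binds), TGACNNNGC (the antioxidant response element) and TGACTCA or TGAGTCA (AP-1), each sought on both strands. MANCR (chr10:4678021-4678320, minus strand) has an AP-1 match at -126 to -120 inside an antioxidant match at -128 to -120. AL365356.5 (chr10:5596069-5596368, minus strand) has an AP-1 match at -59 to -53. LINC02381 (chr12:54125821-54126120, plus strand) has an antioxidant match at -80 to -72 and an AHR core at 31 to 35. AC048341.1 (chr12:62602493-62602792, plus strand) has an AHR core at -43 to -39.
MANCR: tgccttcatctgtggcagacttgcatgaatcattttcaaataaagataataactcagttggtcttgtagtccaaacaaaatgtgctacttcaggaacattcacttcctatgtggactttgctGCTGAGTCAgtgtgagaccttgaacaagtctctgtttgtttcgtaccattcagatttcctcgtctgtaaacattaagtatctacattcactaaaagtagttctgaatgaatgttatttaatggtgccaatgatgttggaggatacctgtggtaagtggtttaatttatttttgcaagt
AL365356.5: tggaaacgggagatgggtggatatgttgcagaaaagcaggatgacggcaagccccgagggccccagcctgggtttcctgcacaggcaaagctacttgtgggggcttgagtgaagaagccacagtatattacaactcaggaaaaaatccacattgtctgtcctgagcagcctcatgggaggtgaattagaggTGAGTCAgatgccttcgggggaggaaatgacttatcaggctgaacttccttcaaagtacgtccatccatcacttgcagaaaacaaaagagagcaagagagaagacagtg
LINC02381: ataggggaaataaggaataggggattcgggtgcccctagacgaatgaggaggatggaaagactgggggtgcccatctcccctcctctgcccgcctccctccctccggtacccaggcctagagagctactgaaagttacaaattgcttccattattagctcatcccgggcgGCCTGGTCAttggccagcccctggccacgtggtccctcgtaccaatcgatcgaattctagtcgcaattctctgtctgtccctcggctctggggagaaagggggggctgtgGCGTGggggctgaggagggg
AC048341.1: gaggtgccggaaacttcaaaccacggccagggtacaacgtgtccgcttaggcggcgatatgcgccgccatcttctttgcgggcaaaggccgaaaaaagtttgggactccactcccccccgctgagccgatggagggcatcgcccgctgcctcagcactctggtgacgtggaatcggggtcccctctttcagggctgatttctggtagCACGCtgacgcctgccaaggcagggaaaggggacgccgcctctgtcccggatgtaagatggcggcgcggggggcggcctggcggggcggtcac

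These matches are common letters. Of the 518 genes, 230 matched a promoter of the RefSeq table, and for 160 of these the RefSeq start lay within 100 bases of the GENCODE start. The AHR core stood in 46.1% of the 230 and in 36.5% of all 35116 promoters of the table. Antioxidant matches stood in 18.3% and 13.3%, AP-1 matches in 3.91% and 4.95%, and matches to the p53 site, searched by its consensus, in 6.52% and 6.63%. AP-1 and antioxidant matches overlapped in 5 of the 230 and in 197 promoters of the table. Of the 10 matched genes called higher in CB, 4 held the AHR core, 3 antioxidant letters, 2 AP-1 letters and 2 the p53 site. Of the 25 called higher in S1650b the counts were 12, 4, 3 and 3, and MANCR and AL365356.5 hold AP-1 letters in both.

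Gene counts summed to 20658247 for the control, 20946139 for CB and 20417744 for S1650b, and 1 CPM is 20.7, 20.9 and 20.4 counts. Folds are ratios of CPM scaled by TMM factors, and their 95% intervals cover counting error only. The libraries carried no stated molecular identifiers, and PCR copies of 1 molecule count as separate reads, which makes these intervals too narrow. A gene is called higher or lower from a fold of 2 either way with an interval that does not reach 1, and folds under that are given as values only. All 10 keratinocyte markers reached 1 CPM, with a summed level of 14380, 13135 and 8126 CPM in control, CB and S1650b. The 6 fibroblast markers summed to 88.8, 29.1 and 14.1 CPM and the 6 endothelial ones to 55.6, 31.2 and 52.6. The 5 melanocyte markers stayed between 7.88 and 10.4 CPM with TYR and DCT at 0. The part of these levels in the results was not tested.

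The 518 genes together gave 59283, 52903 and 81888 counts in the same order (control, CB, S1650b), which is 0.287%, 0.253% and 0.401% of each library. More of them reached 1 CPM in S1650b (457) than in the control (394) or CB (355). At that level 300 were found in all 3 libraries, 21 only in the control, 18 only in CB and 91 only in S1650b. Their median level per length was 1.31, 1.13 and 1.37 FPKM, against 5.18, 5.44 and 5.33 FPKM for protein-coding genes. The genes are short: the median exon length was 1951 bases against 5126 for protein-coding genes, 162 of 518 had a single exon, and the median GC content was 49.2% against 48.4%.

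In CB, 19 of the 518 were called higher than in the control and 76 lower, or 3.67% and 14.7%. The background over the 14709 genes of at least 1 CPM was 1.72% higher and 5.53% lower. The median log2 fold was -0.29, against 0.00 over all genes. In S1650b, 78 were called higher than in the control and 55 lower, or 15.1% and 10.6%, beside a background of 11.3% and 8.65%. The median log2 fold was 0.21, against -0.09 over all genes. Between the exposures, S1650b was higher than CB in 150 and lower in 48, or 28.96% and 9.27%, where the background was 14.7% and 10.7%, with medians of 0.41 and -0.03.

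These counts carry a limit of the rule. A gene that passed only through 1 library had to be high there, so 42 of the 78 called higher in S1650b are among the 91 that reached 1 CPM in S1650b alone, and 8 of the 19 called higher in CB are among the 18 of CB alone. Of the 55 called lower in S1650b, 14 are among the 21 that reached it in the control alone, BISPR and LINC00857 among them. The genes of S1650b alone also hold 60 of the 150 called higher in S1650b than in CB and 11 of the 76 called lower in CB. Another 88 genes reached 1 CPM in 2 libraries, so the rule fixed their lowest library. Among the 394 that reached 1 CPM in the control, the S1650b median was -0.05, against -0.15 over all genes filtered in the same way. Of these 394, 8.12% were called higher in S1650b and 13.5% lower, against 8.64% and 9.20% of all genes so filtered. This filter has a direction of its own, since it keeps the 21 genes of the control alone. Of those, 14 were called lower and 0 higher in S1650b. Among the 395 with a mean of at least 1 CPM, 45 were called higher in S1650b (11.4% of them, against 10.0% of all genes so filtered) and the median was 0.12 against -0.11. Scaling by total counts moved the S1650b median of all genes from -0.09 to 0.16 and that of the lincRNA genes to 0.46, a gap of 0.30 in both. Of the lincRNA genes called in S1650b, 58.6% were higher under the main scaling and 77.3% under total counts.

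**Figure D1:**
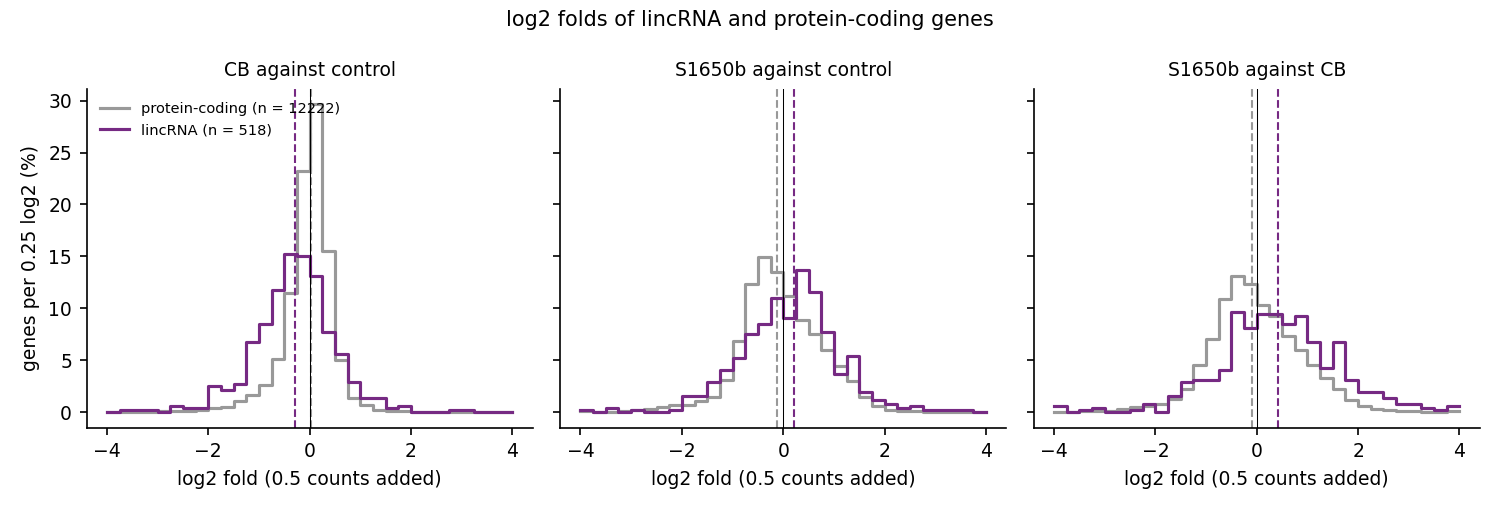
Share of genes in each 0.25 step of log2 fold (0.5 counts added) for 518 lincRNA genes (purple) and 12222 protein-coding genes (grey) in the 3 comparisons, with values beyond 4 put in the end bins. Dashed lines mark the medians: lincRNA genes lie to the left of protein-coding genes in CB and to the right in both comparisons of S1650b.

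How often a gene was called moved with its level. Below a mean of 2 scaled CPM, 45 of 263 lincRNA genes and 234 of 1066 protein-coding genes were lower in CB, and 51 and 235 were higher in S1650b. Between 2 and 5 CPM, 14.3% of 140 and 11.7% of 946 were lower in CB. From 5 to 20 CPM the shares lower in CB were 10 of 83 and 4.07% of 2852. At 20 CPM and above, 5 of 32 lincRNA genes and 6.99% of 7358 protein-coding genes were higher in S1650b, and none and 7.15% were lower. The gap to protein-coding genes in CB thus lay in the classes of 2 CPM and above, and with 32 genes the highest class rests on few values.

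**Figure D2:**
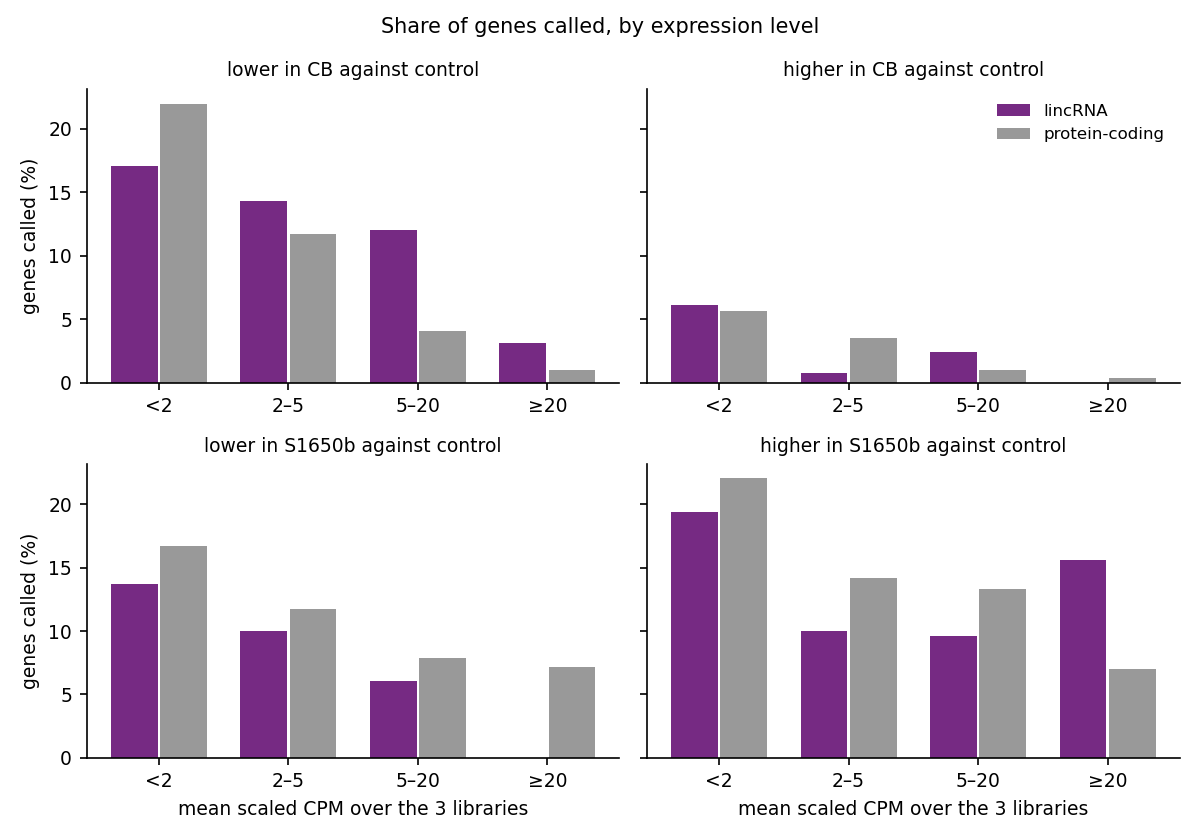
Bars give the percentage of genes called lower (left) or higher (right) in CB and in S1650b against the control, in 4 classes of mean scaled CPM, for lincRNA genes (purple) and protein-coding genes (grey). Shares fall with level in most panels, and lincRNA genes stand above protein-coding genes of the same class in CB lower from 2 CPM up and in S1650b higher only at 20 CPM and above.

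Other noncoding classes are given beside these. Antisense genes (768) had 12.5% lower in CB, and 17.2% higher and 8.72% lower in S1650b. Processed transcripts (143) had 13.3% lower in CB, and 18.9% higher and 3.50% lower in S1650b. Of 78 sense intronic genes, which lie within introns of other genes, 21 were higher in S1650b and 1 lower. In S1650b the lincRNA folds also moved with length and base composition. The median log2 fold was -0.14 for the 130 shortest genes and 0.40 for the 130 longest. It was 0.43 for the 130 of lowest GC and -0.07 for the 130 of highest GC. Protein-coding genes cut at the same lengths and GC values ran from -0.60 to 0.02 and from 0.43 to -0.46, so both classes share these trends. In CB the lincRNA medians stayed between -0.35 and -0.17 in all 8 groups cut by length or GC.

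Both exposures were set against the same control library, so their folds are not independent, and the values of each gene are given side by side. In a bulk culture, fewer cells with a transcript and less of it per cell cannot be told apart.

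Ranked by the interval end nearest to 1, the gene with the highest fold in CB was AC027329.1, an unnamed lincRNA on chromosome 5 (chr5:53297872-53326565). Control, CB and S1650b gave it 2, 22 and 1 counts, so only the CB library was above the floor of 3 counts, and the CB fold was 10.8 (2.66 to 95.1). Its nearest measured protein-coding gene, FST, lies 153844 bases away and encodes follistatin, which binds and blocks activin. FST had 931, 3369 and 347 counts, 3.57-fold higher in CB (3.31 to 3.84) and 3.15-fold lower in S1650b. AC027329.1 passed the rule only through CB, and its other values are under the floor, so no order can be read from it.

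AC002401.4, a single-exon gene at chr17:50094065-50094647, was higher in both exposures. It had 3, 25 and 48 counts, 8.21-fold higher in CB (2.51 to 42.5) and 13.6-fold higher in S1650b (4.39 to 68.4). It did not reach 1 CPM in the control, so the rule fixed the control as its lowest library. Its 3′ end lies 90 bases before PDK2, a kinase that switches off pyruvate dehydrogenase. PDK2 had 381, 168 and 182 counts and was 2.30-fold lower in CB and 2.46-fold lower in S1650b, so the neighbours went opposite ways in both libraries.

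MANCR, a lincRNA first described for its part in mitosis and genome stability, had 47, 154 and 147 counts. It was 3.23-fold higher in CB (2.32 to 4.58) and 2.67-fold higher in S1650b (1.91 to 3.79), and 11.4% of its exon bases are shared with LINC00705. LINC00707 had 11, 46 and 43 counts and was 4.12-fold and 3.33-fold higher. AL365356.5 had 72, 171 and 208 counts, 2.34-fold higher in CB (1.77 to 3.13) and 2.46-fold in S1650b (1.87 to 3.27). In all 3, both exposed libraries were above the control. LINC00707 did not reach 1 CPM in the control, so the rule fixed the control as its lowest library.

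These 3 genes lie with 4 other lincRNA genes of the set on a stretch of 2229 kb on the short arm of chromosome 10, which was picked after its values were seen. LINP1, a scaffold for the Ku and DNA-PKcs proteins of DNA end joining, is among them. It had 390, 718 and 410 counts, 1.81-fold higher in CB (1.60 to 2.06), under the fold of 2, and 1.12-fold lower in S1650b. LINC00705 had 4, 9 and 23 counts, and its S1650b fold of 4.90 (1.67 to 19.5) was called. It reached 1 CPM in S1650b alone, so the rule fixed that library as its highest. AL365356.4 (29, 28 and 45 counts) and AL365356.3 (22, 43 and 18) were not called against the control. Of the 14 other measured genes of the stretch, none was called in CB and 3 were called higher in S1650b, among them FAM208B with 475, 639 and 1448 counts. The xenobiotic-metabolising genes AKR1C1 (1096, 2027 and 1737 counts) and AKR1C2 (5170, 6652 and 6946 counts) lie there too, with CB folds of 1.82 and 1.27. AKR1C3 of the same family (1102, 1075 and 2175 counts) had a CB fold of 0.961 and an S1650b fold of 1.68.

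Further genes were called higher in CB. LINC01119 had 8, 34 and 14 counts and a CB fold of 4.19 (1.90 to 10.5). LINC01315 had 9, 33 and 4 counts with a CB fold of 3.61 (1.69 to 8.58), and AC068580.2 had 16, 47 and 5, with a CB fold of 2.89 (1.61 to 5.47). AC068580.2 was 3.75-fold lower in S1650b (1.31 to 13.1), so the 2 exposed libraries stood on either side of the control. LINC01119, LINC01315 and AC068580.2 reached 1 CPM in CB alone, so the rule fixed CB as their highest library. LINC00941, a repressor of keratinocyte differentiation, had 26, 66 and 55 counts under the identifier ENSG00000285517 and was 2.50-fold higher in CB (1.57 to 4.10), with an S1650b fold of 1.80 (1.11 to 2.99). A second identifier has the same symbol and shares 6.61% of its exon bases. Current names give ENSG00000285517 no symbol, so its link to LINC00941 is uncertain. LINC00513, which has been linked to interferon signalling, had 24, 58 and 21 counts and was 2.38-fold higher in CB (1.46 to 4.01).

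AC138904.1 also stood above the control in CB and below it in S1650b. It had 29, 63 and 16 counts, 2.14-fold higher in CB and 2.13-fold lower in S1650b, and both calls ended when 5 counts were added. It was chosen after its values were seen.

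The gene with the lowest CB fold, ranked by the interval end nearest to 1, was an unnamed lincRNA. AC015712.1 (chr15:100849561-100861756) had 29, 2 and 51 counts and was 14.7-fold lower in CB (3.72 to 127). It shares 39.0% of its exon bases with AC015712.6. It lies 15958 bases from ALDH1A3, which makes retinoic acid from retinaldehyde and had 6914, 2722 and 14535 counts, 2.58-fold lower in CB and 1.79-fold higher in S1650b. Both genes were lowest in CB and highest in S1650b.

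AC026471.4 had 50, 8 and 53 counts and was 6.34-fold lower in CB (2.98 to 15.5). C7orf65 had 98, 23 and 84 counts, 4.32-fold lower (2.72 to 7.14). AL109976.1 had 176, 52 and 199 counts, 3.44-fold lower (2.51 to 4.78). In these 3 the S1650b library was not called against the control. FAM111A-DT, which starts beside the antiviral and replication gene FAM111A and runs the other way, had 192, 69 and 233 counts and was 2.82-fold lower in CB (2.13 to 3.77). LINC02518 (62, 13 and 35 counts) was lower in both, 4.84-fold in CB and 2.08-fold in S1650b, and the S1650b call ended under total counts at 0.571 of the control. LINC01451 (78, 20 and 49 counts) was 3.96-fold lower in CB and 1.87-fold lower in S1650b. LINC00271 had 14, 1 and 22 counts, a CB ratio of 0.0704 (0.00166 to 0.463) that rests on 1 count. AL035661.1, one of the most abundant lincRNAs per length (33.3, 16.6 and 40.1 FPKM), had 755, 365 and 1035 counts and was 2.10-fold lower in CB (1.85 to 2.39), but 0.503 of the control once the trend with length was removed.

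By the same ranking the highest fold in S1650b belonged to AL590004.3 (chr6:3904920-3911979). It had 26, 8 and 265 counts, 8.69-fold higher in S1650b (5.80 to 13.5) and 3.30-fold lower in CB (1.45 to 8.43). The 3 libraries therefore ran in the order CB, control, S1650b. AF127577.4 had 25, 12 and 125 counts in the same order, with an S1650b fold of 4.26 (2.76 to 6.84), but shares 27.7% of its exon bases with LINC02246 and NRIP1. AL137003.2 had 18, 8 and 79 counts and was 3.74-fold higher in S1650b (2.22 to 6.63). AC092903.2 had 10, 18 and 66 counts, 5.62-fold higher (2.87 to 12.3), with 38.9% of its exon bases shared with AC092902.2. Fewer counts lie behind AL445623.2 (3, 4 and 26) and AC021218.1 (4, 5 and 30), which were 7.39-fold (2.26 to 38.1) and 6.39-fold (2.25 to 25.0) higher in S1650b. LINC01239 had 4, 0 and 26 counts. AL137003.2, AC092903.2, AL445623.2, AC021218.1 and LINC01239 reached 1 CPM in S1650b alone, so the rule fixed that library as their highest.

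By mean FPKM over the 3 libraries the most abundant gene of the set was IGFL2-AS1, at 89.3, 66.4 and 243 FPKM in control, CB and S1650b. SNHG19 (127 and 103 FPKM) and SNHG8 (112 and 111 FPKM) were above it in control and CB. It is transcribed against IGFL2, a member of a family of small secreted growth-factor-like proteins. Its 3097, 2240 and 9576 counts make it 2.64-fold higher in S1650b (2.53 to 2.74) and 1.40-fold lower in CB (1.33 to 1.48). AC007785.1, which overlaps its span on the other strand without sharing an exon base, had 437, 327 and 1349 counts, 2.63-fold higher in S1650b and 1.36-fold lower in CB. The pseudogene IGFL1P1 within the span of IGFL2-AS1 had 827, 660 and 2794 counts. All 3 had nearly the same order and folds, while IGFL1, 26669 bases away, had 21, 68 and 21 counts and was 3.19-fold higher in CB (1.93 to 5.48). The sources used here do not say if reads were counted by strand, so antisense and overlapping genes are uncertain.

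AC245041.1 on chromosome 10 had 737, 654 and 2319 counts and was 2.68-fold higher in S1650b (2.47 to 2.92). It lies within the span of AC245041.2, which had 1095, 905 and 2374 counts and an S1650b fold of 1.85 (1.72 to 1.99). Of the 31-base words of AC245041.2, 73.8% also occur in transcripts of other genes, against none for AC245041.1, so the counts of AC245041.2 are uncertain.

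**Figure D3:**
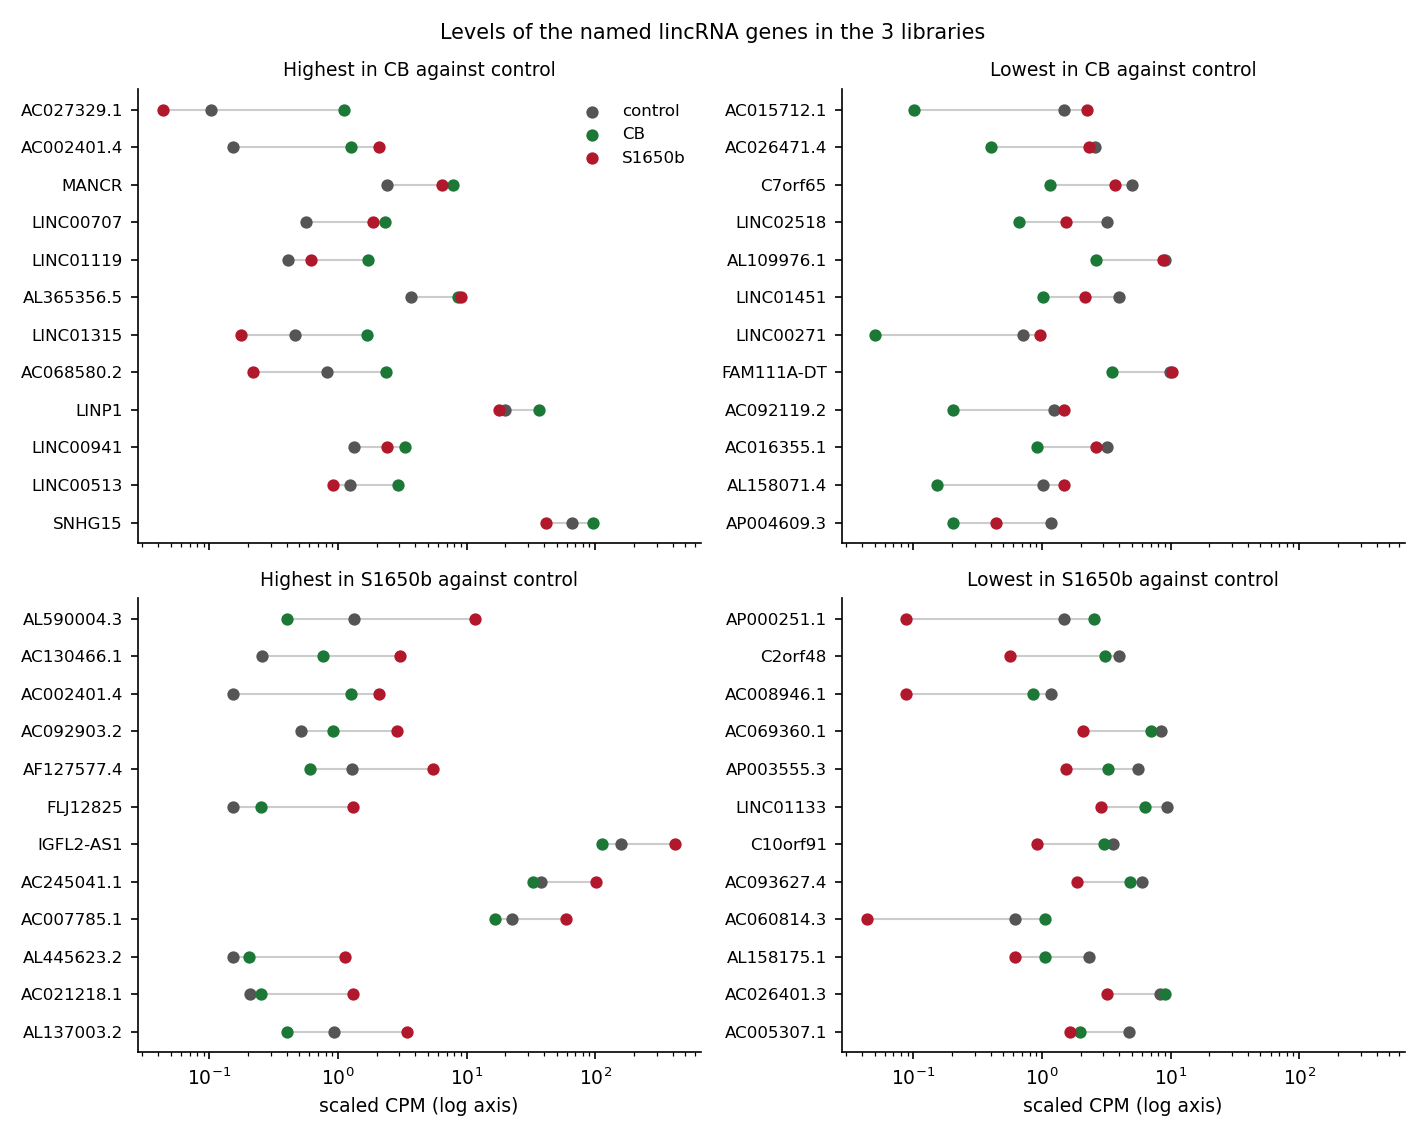
Scaled CPM (log axis) of the 12 lincRNA genes with the highest and the 12 with the lowest fold of CB and of S1650b against the control, ranked by the interval end nearest to 1, in the control (grey), CB (green) and S1650b (red). The S1650b points of the lower left panel stand right of the other points, and in the upper right panel CB is the lowest library of all 12 genes.

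Of the 55 genes called lower in S1650b, 11 were also called lower in CB and 2 higher in CB. Over all 518, 14.7% were lower and 3.67% higher in CB. AP000251.1 (chr21:31559245-31560487), within the span of TIAM1, had 29, 50 and 2 counts and was 17.0-fold lower in S1650b (4.30 to 147). TIAM1, an activator of the GTPase Rac, had 211, 264 and 468 counts and an S1650b fold of 1.89. C2orf48 had 78, 61 and 13 counts, 7.04-fold lower (3.89 to 13.8). AC069360.1 had 164, 140 and 48 counts, 4.01-fold lower (2.89 to 5.65), AP003555.3 had 108, 64 and 35, 3.62-fold lower (2.45 to 5.46), and C10orf91 had 69, 60 and 21, 3.86-fold lower (2.34 to 6.62). In each of these the S1650b library was the lowest. AC008946.1 had 23, 17 and 2 counts, but 53.7% of its 31-base words occur in other genes. It reached 1 CPM in the control alone, so the rule fixed that library as its highest. AC005307.1 (93, 39 and 38 counts) and AL158175.1 (45, 21 and 14) were lower in both exposures, by 2.42-fold and 2.17-fold in CB and 2.87-fold and 3.77-fold in S1650b.

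Few lincRNAs with a known place in skin were in the set. Of 22 listed for epidermis and squamous cells, 4 were in the set, 1 higher in CB (LINC00941) and 2 lower in S1650b. Over all genes 1.72% were higher in CB and 8.65% lower in S1650b, and 4 genes are too few to set against these. The lists of noncoding genes were looked up among the 518 only. Listed genes of another type, or left out by name, are therefore not counted. HOTAIR, listed but typed antisense, had 182, 94 and 268 counts and was not called against the control. LINC01133 had 183, 126 and 66 counts and was 3.25-fold lower in S1650b (2.44 to 4.38). LINC00857 had 28, 15 and 15 counts and was 2.19-fold lower (1.13 to 4.41), a call that ended when 5 counts were added, at 0.516 of the control. BLACAT1 (104, 86 and 62 counts) was at 1.97-fold lower, under the threshold. LINC01503, which TP63 drives in squamous cells and which was among the 12 most abundant, had 2661, 2482 and 2983 counts with folds of 0.919 and 0.955.

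Of 11 listed genes linked to p53, the factor that answers DNA damage, 3 were in the set and none of these was called. Over all genes 1.72% were higher and 5.53% lower in CB, and 11.3% and 8.65% in S1650b, so none of 3 is near the background. NEAT1, also listed, was left out of the set by name, and its counts are not given. TP53TG1 had 488, 290 and 517 counts, 1.71-fold lower in CB (1.47 to 1.98). MIR34AHG, the host of miR-34a, had 84, 69 and 85 counts with folds of 0.809 (0.580 to 1.13) and 0.862 (0.630 to 1.18). PVT1, the neighbour of MYC, had 1063, 1224 and 822 counts and was 1.52-fold lower in S1650b (1.38 to 1.66). All of these stayed within a fold of 2. Of 13 genes listed for oxidative and xenobiotic stress, only MIR210HG and MIAT were in the set. MIR210HG was called lower in CB, as were 5.53% of all genes.

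Of 13 genes listed for inflammation and interferon, 3 were in the set. BISPR had 29, 20 and 12 counts and was 2.84-fold lower in S1650b (1.40 to 6.10), with 27.7% of its exon bases shared with AC010319.3, AC010319.4 and MVB12A. Its start lies 38 bases from that of BST2, the interferon-induced protein tetherin, which had 368, 238 and 145 counts and was 2.98-fold lower in S1650b. Both genes stood highest in the control and lowest in S1650b, and neither was called in CB. LINC00346 had 30, 28 and 34 counts and was not called.

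Host genes of small nucleolar RNAs are usually made fast and turned over by translation-coupled decay. Of 34 listed, 9 were in the set. None of these was called in CB and 1 was called lower in S1650b (11.1%), with medians of -0.07 and -0.56. Over all genes 1.72% were higher and 5.53% lower in CB, and 8.65% were lower in S1650b. The counts called are thus near the background. SNHG8 had 2040, 1979 and 1467 counts, 1.63-fold lower in S1650b (1.53 to 1.75), and SNHG19 had 858, 677 and 684. SNHG18 (149, 81 and 86 counts) was 2.03-fold lower in S1650b and lost the call under 8 of the alternatives that kept the fold of 2. SNHG15 had 1277, 1913 and 952 counts, 1.48-fold higher in CB (1.37 to 1.59) and 1.57-fold lower in S1650b (1.45 to 1.71). For SNHG4, EPB41L4A-AS1 and SNHG25, 16.6%, 49.6% and 48.6% of exon bases are shared with other genes.

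Of 13 listed host genes of microRNAs in the set, 1 was lower in CB and 2 were higher in S1650b (7.69% and 15.4%, beside 5.53% and 11.3% of all genes). MIR22HG, whose exon holds the miR-22 hairpin shown above, had 339, 396 and 970 counts, 2.44-fold higher in S1650b (2.15 to 2.77) and 1.15-fold higher in CB (0.993 to 1.33). The other was AL158152.1 (23, 25 and 61 counts, 2.26-fold higher in S1650b), a let-7 host by its current name MIRLET7A1HG, which shares 78.7% of its exon bases with LINC02603 and fell to a fold of 1.51 with the GC trend removed. MIR210HG, the host of the hypoxia-induced miR-210, had 86, 40 and 67 counts and was 2.18-fold lower in CB (1.48 to 3.26). MIR222HG, host of the pair with the GCUACAU seed, had 86, 119 and 153 counts and an S1650b fold of 1.52, under the threshold. MIR503HG had 66, 73 and 41 counts, 1.89-fold lower in S1650b (1.26 to 2.86). MIRLET7BHG (289, 283 and 413 counts) and MIR4458HG (125, 138 and 142), which hold let-7 seed molecules shown above, were not called.

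AC048341.1, whose intron holds the hairpin of let-7i, lies outside that list and was added after its values were seen. It had 44, 35 and 115 counts, 2.23-fold higher in S1650b (1.56 to 3.23). The fold was 1.75 with the length trend removed, 1.62 with the GC trend removed and 1.34 with both. LINC00472, host of the miR-30 pair, had 43, 59 and 78 counts and an S1650b fold of 1.55 (1.05 to 2.30).

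FTX, a noncoding gene of the X-inactivation centre and host of miR-421, miR-374 and miR-545, had 383, 320 and 963 counts and was 2.14-fold higher in S1650b (1.90 to 2.42). At 28487 bases it has the longest exon sequence of the set, and 44.3% of that is shared with JPX and other genes. The fold was 1.28 with the length trend removed, 1.45 with the GC trend and 0.933 with both, so its direction depends on these trends. A sense intronic gene inside it, Z83843.1, had 67, 77 and 276 counts, 3.51-fold higher in S1650b. JPX, which runs the other way, had 33, 24 and 57 counts and 83.6% shared exon bases.

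At the HOXC genes, which set body position and hair and nail identity in skin, 5 lincRNAs of the set follow each other with gaps of at most 50 kb, a group chosen after its values were seen. LINC02381 had 18, 5 and 65 counts, 3.65-fold lower in CB (1.31 to 12.6) and 3.08-fold higher in S1650b (1.80 to 5.51). FLJ12825 had 3, 5 and 30 counts and was 8.52-fold higher in S1650b (2.65 to 43.6). AC023794.4 (8, 11 and 35 counts) and AC023794.5 (7, 3 and 24) were 3.73-fold and 2.92-fold higher, the latter with 43.1% of its exon bases shared with SMUG1-AS1. AC012531.1 (74, 54 and 125 counts) had an S1650b fold of 1.44 and was not called. All but AC012531.1 reached 1 CPM in S1650b alone, so the rule fixed that library as their highest, and the group is a description of position only. The 10 protein-coding genes within 100 kb of these, HOXC13 (1394, 732 and 1073 counts) and SMUG1 (654, 778 and 524) among them, were called in neither exposure.

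**Figure D4:**
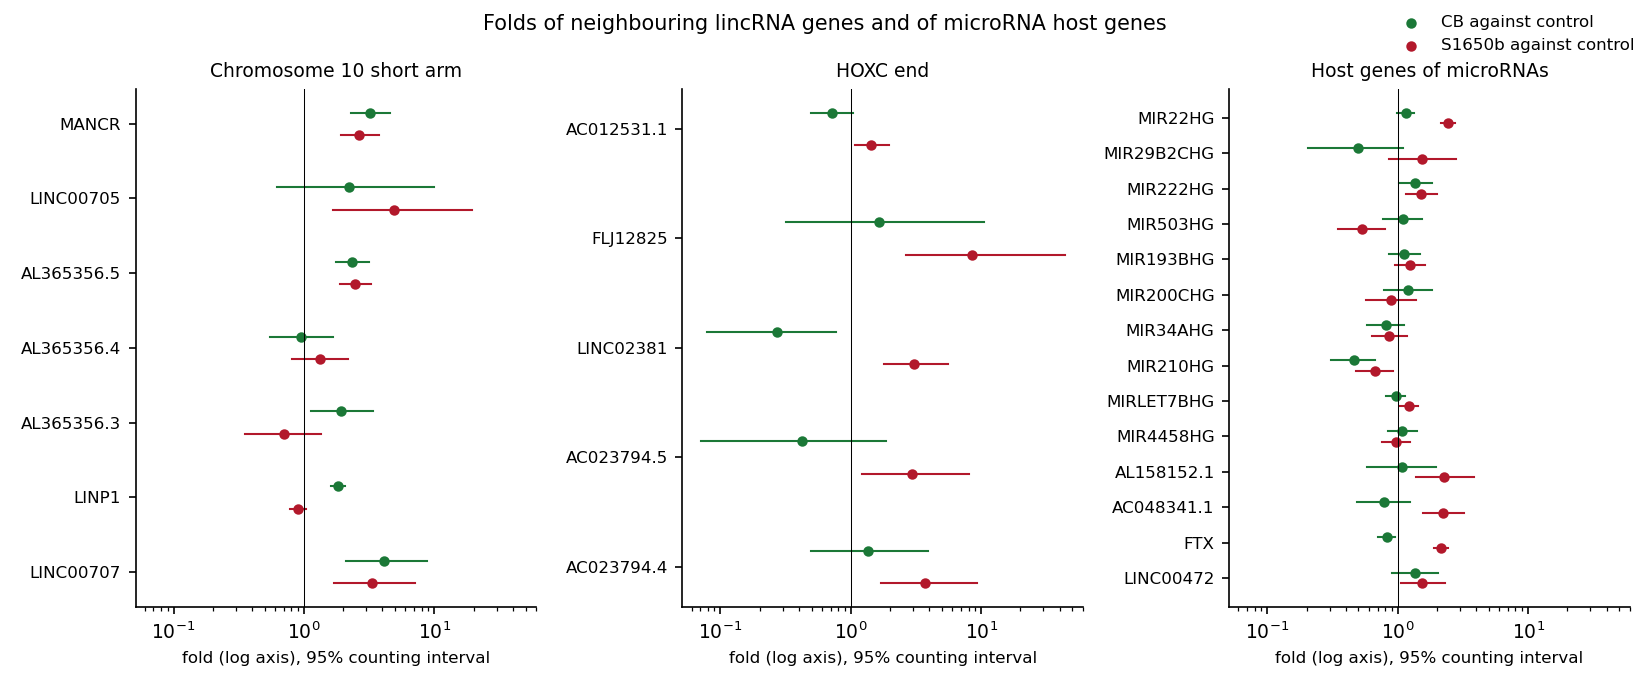
Folds of CB (green) and S1650b (red) against the control on a log axis, with 95% counting intervals as lines, for the lincRNA genes of the chromosome 10 stretch, those beside HOXC and 14 host genes of microRNAs. AL158152.1 is a host by its current name only. MANCR, AL365356.5 and LINC00707 stand right of 1 in both exposures, and most microRNA hosts lie near 1. LINC00707 did not reach 1 CPM in the control, which fixes its side. Of the 5 genes beside HOXC, 4 entered the set only through S1650b, which fixes their side there.

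Other groups of neighbours were less even. In all, 33 of the 518 fell into 10 groups of at least 3 genes with gaps of at most 50 kb. On chromosome 22, AC245060.6 (38, 40 and 112 counts) and AC245060.5 (26, 17 and 91) were 2.51-fold and 2.98-fold higher in S1650b, and AC245060.2 (50, 19 and 90) was 2.67-fold lower in CB. The 4 genes of chromosome 7 named AC092171.2 to AC092171.5 were not called in either exposure.

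Arrangement to the nearest measured protein-coding gene was not used by the rule. Of the 518, 116 started head to head with that gene within 2 kb, 95 overlapped its span, 58 lay downstream on the same strand within 10 kb, 34 on the opposite strand, 16 upstream on the same strand, and 199 were farther away. Called higher in S1650b were 6 of the 116 head to head (5.17%), 12 of the 58 downstream (20.7%) and 34 of the 199 farther away (17.1%). Called lower in CB were 21, 11 and 23 of them. Across genes, the log2 folds of S1650b for lincRNA and neighbour had a Pearson r of 0.46 over the 116 head to head, 0.48 over the 58 downstream and 0.13 over the 199 farther away. The rank correlations (Spearman's rho) were 0.36, 0.39 and 0.14, and among the head-to-head pairs AC130466.1 and HS3ST2 lie far above the others on both axes. Over the 95 overlapping, 34 opposite-strand and 16 upstream pairs r was 0.18, 0.28 and -0.28, and rho 0.20, 0.34 and 0.04. In CB Pearson's r was 0.23, 0.22 and 0.21 over the head-to-head, downstream and farther pairs. Over the overlapping, opposite-strand and upstream pairs it was 0.12, 0.20 and -0.35. Genes are not independent replicates, both genes of a pair come from the same libraries, and without the strand reads that run on past a gene end cannot be told apart from a downstream transcript.

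Most genes of the set had a neighbour that was not called. Of the 133 lincRNA genes called in S1650b, 27 had a neighbour called in the same direction, 11 in the opposite one and 95 one that was not called. In CB the counts were 9, 2 and 84 of 95. Among all 518 genes, 54 had a neighbour called higher in S1650b and 34 had one called lower. In CB these were 5 and 26. The counts for called genes were not tested against these.

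**Figure D5:**
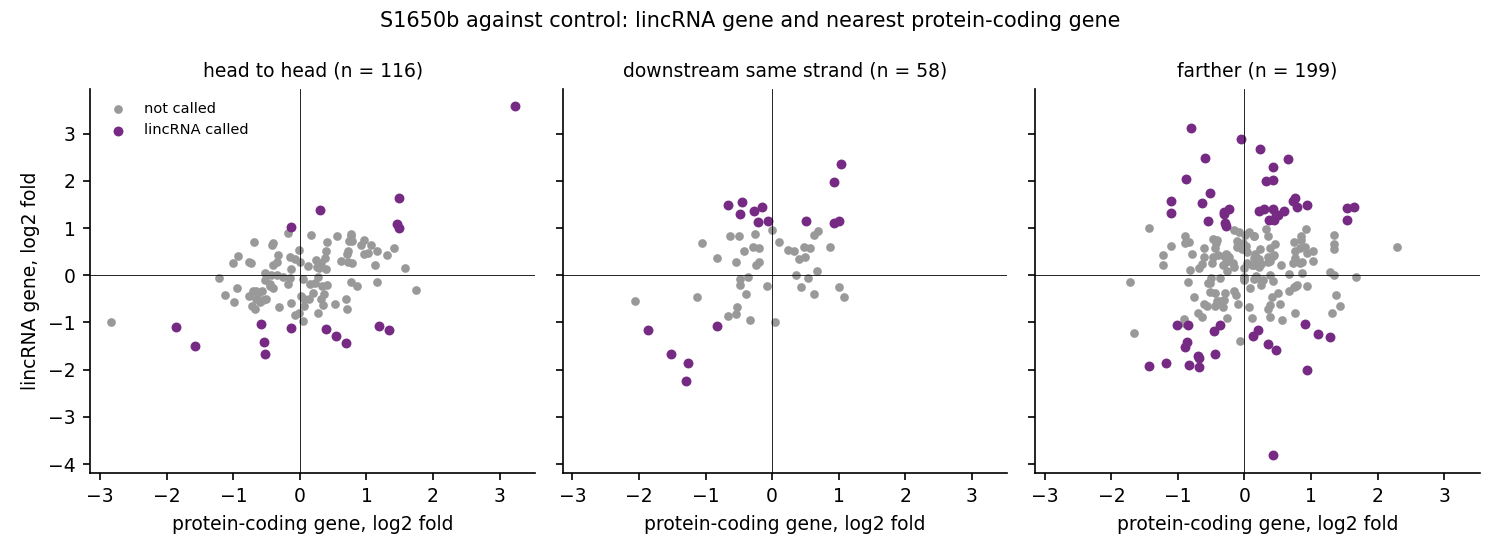
log2 fold of S1650b against control for each lincRNA gene (vertical) and its nearest measured protein-coding gene (horizontal), for 116 head-to-head pairs, 58 pairs with the lincRNA downstream on the same strand and 199 farther pairs, with called lincRNA genes in purple. Points follow the diagonal loosely in the first panels (r of 0.46 and 0.48) and less in the last (0.13). Overlapping, opposite-strand and upstream pairs are not drawn.

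The head-to-head pair with the highest folds was AC130466.1 and HS3ST2, a heparan sulfate sulfotransferase, whose starts are 497 bases apart on chromosome 16. AC130466.1 had 5, 15 and 70 counts, 2.96-fold higher in CB (1.02 to 10.4) and 11.9-fold higher in S1650b (4.88 to 37.9). HS3ST2 had 65, 308 and 716 counts, 4.67-fold higher in CB (3.56 to 6.20) and 9.39-fold higher in S1650b (7.28 to 12.3). Both rose in the order control, CB, S1650b, though the CB fold of AC130466.1 was 1.97 with 5 counts added. AC130466.1 reached 1 CPM in S1650b alone, so the rule fixed that library as its highest.

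Further pairs moved together in S1650b. DNAJC3-DT (38, 36 and 95 counts) was 2.13-fold higher and DNAJC3, a co-chaperone of the endoplasmic reticulum, 2.74-fold. WWC2-AS2 (14, 9 and 33) was 2.01-fold higher and WWC2 2.79-fold, and AC068282.1 (9, 15 and 33) was 3.12-fold higher with the kinase gene MAP3K2 at 2.80-fold. With 5 counts added DNAJC3-DT fell to 1.98 and WWC2-AS2 lost its call as well. WWC2-AS2 and AC068282.1 reached 1 CPM in S1650b alone, so the rule fixed that library as their highest. In CB, EPB41L4A-DT (41, 12 and 53 counts) was 3.47-fold lower and EPB41L4A 2.07-fold lower. AC005722.2 (129, 60 and 246) was 2.18-fold lower with SLC47A2, an exporter of organic cations, at 2.15-fold lower.

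Other pairs parted. YTHDF3-AS1 had 34, 38 and 19 counts and was 2.10-fold lower in S1650b (1.16 to 3.90), whereas YTHDF3, a reader of methylated adenosine in RNA, had 871, 893 and 2325 and was 2.27-fold higher. AL355353.1 had 21, 16 and 11 counts, 2.24-fold lower (1.03 to 5.14), with the adaptor gene CD2AP (559, 632 and 1659 counts) 2.53-fold higher. Both lincRNA calls ended when 5 counts were added, at 0.524 of the control. AL355353.1 reached 1 CPM in the control alone, so the rule fixed that library as its highest.

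Of the 5 genes called lower in S1650b that lie downstream of a gene on its own strand, 4 had that gene called lower too. Of the 12 called higher there, 2 had that gene called higher. Among all 58 downstream genes, 7 had that gene called lower and 4 had it called higher. AC145207.5 (24, 23 and 6 counts) was 4.69-fold lower and ALYREF, an mRNA export factor, 2.46-fold lower. AL645608.7 (54, 34 and 20) was 3.17-fold lower and HES4, of the Notch target family, 2.88-fold. AL021807.1 (28, 34 and 9) was 3.65-fold lower and the histone gene HIST1H2BJ 2.41-fold, and LINC01730 (21, 18 and 11) was 2.24-fold lower with the cell cycle phosphatase gene CDC25B at 3.65-fold lower. LINC00862 (4, 3 and 24) was 5.11-fold higher with ZNF281 at 2.04-fold higher. LINC00862 reached 1 CPM in S1650b alone and LINC01730 in the control alone, so the rule fixed their highest library. AC145207.5 shares 29.2% of its exon bases with AC145207.6 and LINC01730 25.1% with AL109804.1. All these pairs were chosen after their values were seen.

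Genes of the machinery that ends and removes noncoding transcripts were read from lists. None of the 20 nuclear exosome and adaptor genes, 14 Integrator genes, 10 nonsense-mediated decay genes or 16 cleavage and polyadenylation genes was called in CB. In S1650b the exosome list had 2 higher and 1 lower, Integrator 3 higher, nonsense-mediated decay 2 higher and cleavage and polyadenylation none, with medians of -0.20, 0.06, 0.18 and -0.21. Over all genes 11.3% were higher and 8.65% lower, so the exosome counts are near the background, and no list was tested against it. DIS3, a catalytic exosome subunit, had 455, 447 and 1185 counts (2.22-fold higher), ZFC3H1, of the adaptor that brings polyadenylated nuclear RNA to the exosome, had 301, 274 and 952 (2.70-fold), and EXOSC5, a core subunit, had 1045, 956 and 535 (2.29-fold lower). INTS2, INTS7 and INTS8 of Integrator, which cleaves nascent noncoding RNA, were 2.41-fold, 2.09-fold and 2.39-fold higher. SMG1, the kinase of nonsense-mediated decay, had 1067, 1017 and 3130 counts (2.50-fold). The part of these genes in the lincRNA levels was not tested.

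Sequence shared with other genes limits some of these values. Of the 518 genes, 163 share exon bases with another gene, 50 of them over 20% of their exon length, and 97 have over 20% of their 31-base words in transcripts of another gene. Among the 355 that share no exon base, 15.8% were lower in CB and 14.9% higher in S1650b, against 6.06% and 11.5% of the 7481 genes filtered alike.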

How the data were processed

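RNA-seq of 3 HaCaT libraries was used, 1 per group, mapped to groups by the labels. The authors deposited a table of raw read counts per gene and a table of FPKM, and column names gave each library (0 columns of values had no sample). Per the submitters' processing notes, CASAVA 1.7 and mouse builds (mm8, mm9) were used, although all identifiers are human. The aligner, the counter and any poly(A) selection were not given in the sources used here. Library totals were 20417744 to 20946139 counts, which set the counting intervals.

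Counts were scaled by TMM over all genes (edgeR 4.0.16, R 4.3.3). Folds are ratios of scaled CPM with exact conditional binomial (Clopper-Pearson) 95% intervals (scipy 1.17.1), tested on simulated data. With 1 library per group no P value was computed. log2 folds have 0.5 counts added. Gene types, exons and neighbours came from GENCODE 29, and sequences from RefSeq tables. Genes named are the 12 highest and 12 lowest folds of each exposure by the interval end nearest to 1, the 6 and 6 of S1650b against CB, the 12 highest mean FPKM, listed genes (10 lists), and others said to be chosen after their values were seen. The lincRNA genes and the lists were chosen with earlier results of these data known. Alternatives were other scalings (DESeq2 1.42.0 median of ratios among them), FPKM in place of counts, other folds, filters and added counts, and removal of trends with length and GC (lowess, span 30%). The leukocyte markers are not reported here.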

Additional observations from a re-analysis of the deposited data

How the results depend on the processing

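With total counts as the scale, 34 lincRNA genes were lower in S1650b than in the control (6.56%, against 5.50% of all genes), and the medians were 0.46 against the control and 0.66 against CB. At a fold of 1.5, 31 were higher and 121 lower in CB, and 126 higher and 87 lower in S1650b, where all genes gave 4.85%, 10.4%, 20.5% and 21.6% against 5.98%, 23.4%, 24.3% and 16.8% of the lincRNA genes. At a fold of 3 these counts were 6, 30, 26 and 18, with 84 higher and 19 lower in S1650b than in CB. All genes gave 0.598%, 2.13%, 2.93%, 3.43%, 5.79% and 3.51%, the lincRNA genes 1.16%, 5.79%, 5.02%, 3.47%, 16.2% and 3.67%. With at least 5 CPM in any library they were 2, 16, 23 and 11, with 39 and 11 between the exposures. All genes so filtered gave 0.660%, 2.59%, 9.47%, 7.55%, 11.2% and 10.5%, the lincRNA genes 1.29%, 10.3%, 14.8%, 7.10%, 25.2% and 7.10%. With at least 1 CPM in the control, 6 were higher in CB and 32 in S1650b, 90 were higher in S1650b than in CB (1.52%, 8.12% and 22.8%, against 0.808%, 8.64% and 12.3% of all genes so filtered), the S1650b median turned to -0.052 against the control, and it was 0.27 against CB. With 5 counts added, 12 were higher in CB (2.32%, against 1.22%). With the length trend removed the S1650b median was 0.32, and of the genes called 72.3% were higher, against 58.6% before and 37.6% with at least 1 CPM in the control. Alternatives chosen after seeing the data gave, with a mean of at least 1 CPM, 12 higher in CB, 45 higher in S1650b and 30 lower in S1650b than in CB (3.04%, 11.4% and 7.59%, against 1.33%, 10.01% and 10.4%), and, with length and GC trends removed, a median of 0.52 for S1650b against CB and a fold of 0.933 for FTX in S1650b. The cause was not tested, beyond the fewer genes that the filters left. Of 156 calls on named genes, 23 were lost with deposited FPKM, 23 with both trends removed, 20 with 5 counts added, 14 with total counts and 66 at a fold of 3. No paired analysis was possible because each group has 1 library and the labels give no replicate numbers. Depth limits genes near 1 CPM, where 1 library holds about 20.4 to 20.9 counts.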
